A study of Mus musculus with 20 samples.

Results

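The 8 genes described here, Gata1, Klf1, Tal1, Nfe2, Lmo2, Zfpm1, Gfi1b and Ldb1, encode transcription factors and cofactors that set the red cell program. They were chosen by name, and their introns were found by matching the transcript of each deposited line to its gene symbol. This gave 31 introns of 8 genes, among 68794 introns of 8397 genes in the deposited tables. The cells were murine erythroleukemia (MEL) cells, a mouse leukemia line arrested at a red cell precursor stage that resumes maturation in dimethyl sulfoxide (DMSO). The uninduced group was wild-type MEL cells with no treatment, and the induced group was wild-type MEL cells kept for 5 days in 2% DMSO. In each group, RNA attached to chromatin was stripped of polyadenylated and ribosomal RNA and read as long molecules, from 2 biological replicates on 2 PacBio instruments (4 samples a group). The tables hold 1 pooled value per intron and group, so the spread between replicates is not known and each test compares 2 pools of libraries, not 2 conditions.

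GATA1 is the zinc finger factor that activates most red cell genes, and ZFPM1 (FOG-1) is its cofactor. TAL1 binds DNA beside GATA1 in a complex that is held together by the adaptors LMO2 and LDB1, and LDB1 also joins distant enhancers to promoters, among them those of the beta-globin locus. KLF1 activates globin and many other red cell genes, NFE2 pairs with small Maf proteins at the globin control region, and GFI1B is a repressor that recruits histone-modifying enzymes. In nascent RNA, an intron can be removed while the polymerase is still at work downstream, and the share of such molecules that are already spliced is the co-transcriptional splicing efficiency (coSE). Here coSE is the spliced reads of an intron divided by all its reads, spliced and unspliced.

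The splice sites of Gata1 and Gfi1b are shown because these were the only 2 of the 8 genes with introns deep enough in both pools for a comparison of the pools intron by intron. The deposited table listed sequences for 6 of the 31 introns. Each 5' site holds 3 exon and 6 intron bases and each 3' site 20 intron and 3 exon bases, with the first and the last 2 bases of the intron in capitals. Introns are numbered in transcript order and positions are on GRCm38.
Gata1 intron 1, 5' site: cagGTcagt
Gata1 intron 1, 3' site: aaccctttctgtcctcacAGgtt
Gata1 intron 2, 5' site: cagGTaact
Gata1 intron 2, 3' site: cctctctaccccttcaacAGtct
Gata1 intron 3, 5' site: gtgGTgagg
Gata1 intron 3, 3' site: cttttctctccatctaccAGagg
Gata1 intron 4, 5' site: atgGTaagt
Gata1 intron 4, 3' site: cctgtccttttattcctcAGatt
Gfi1b intron 1, 5' site: acgGTgagt
Gfi1b intron 1, 3' site: ttgcccctcctcccccgcAGgtg
Gfi1b intron 2, 5' site: ctgGTgagt
Gfi1b intron 2, 3' site: tgggtcttgtctcctcacAGtgg
All 6 introns begin with GT and end with AG. The deposited 5' site score ranged from 6.13 at Gata1 intron 3 to 11.45 at Gfi1b intron 1, against a median of 8.78 over the 6537 introns of that table. The 3' site score ranged from 6.74 at Gata1 intron 2 to 13.23 at Gfi1b intron 1, against a median of 8.70. How the scores were computed is not given in the sources used here.

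The pools held 416379 intron observations before and 279371 after induction, a read being counted at every intron it covers. The red cell identity of the cells was checked with 8 marker genes: 6 of 8 had reads in the uninduced pool (564 observations) and 8 of 8 in the induced pool (7580). The 2 markers at 0 in the uninduced pool were Slc4a1 and Epb42. Of 3 megakaryocyte markers, which mark a related blood lineage, 3 had reads before and 2 after induction, with 107 and 212 observations in all. These did not go one way: Itga2b had 26 uninduced and 202 induced observations, Pf4 80 and 10, and Gp9 1 and 0. None of 3 macrophage and 3 lymphoid markers had a line in the table. In each pool 27 of the 31 introns had a read, and at least 10 reads were reached by 14 introns before and 7 after induction.

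Gata1, Gfi1b and Ldb1 carried most of the reads of the group. Gata1 had 91 uninduced and 128 induced observations, Gfi1b 44 and 77, and Ldb1 111 and 28. The other 5 genes had fewer than 10 observations in at least 1 pool, under the minimum set for a test of their change.

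**Figure D1:**
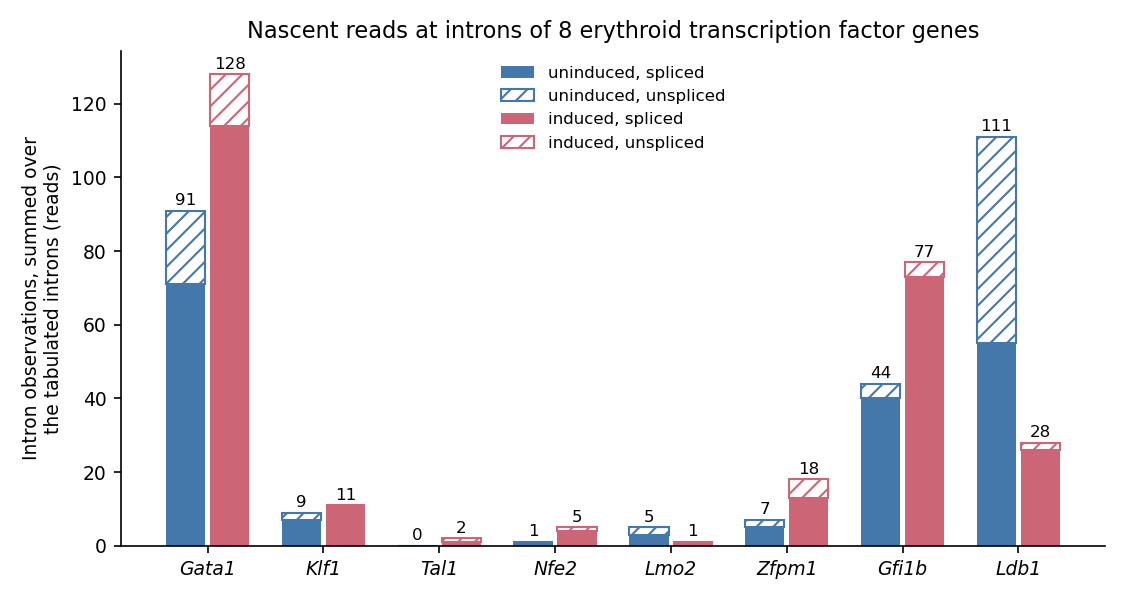
Intron observations (reads, y axis) summed over the tabulated introns of each gene, split into spliced (filled) and unspliced (hatched), before (blue) and after (red) induction; numbers above the bars are totals. Ldb1 has the most unspliced observations of the 8 genes, 56 of 111 uninduced observations, beside 2 of 28 after induction.

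Ldb1 was poorly spliced in uninduced cells and almost fully spliced in the few molecules seen after induction. Summed over its 10 introns, 55 of 111 uninduced observations were spliced, a coSE of 0.495 (95% Wilson interval 0.404 to 0.587), against 26 of 28 induced observations, a coSE of 0.929 (interval 0.774 to 0.980). By Fisher's exact test on these sums, the difference of 0.43 had an adjusted p of 0.000878 (unadjusted p 2.28e-05; Benjamini-Hochberg over 3529 genes). Ldb1 was the 1 of 3 members tested that changed past the threshold of 0.05, in a comparison in which 7.08% of all genes tested rose and 3.8% fell. The introns of a gene share molecules, so the sums count a read several times. These p-values are therefore too small, and the Wilson intervals of summed values, here and for the other genes, are too narrow. At its deepest intron, number 7, where a read counts once, Ldb1 was spliced in 13 of 16 uninduced and 4 of 4 induced reads, which is the largest rise that 4 reads can show and has an unadjusted p of 1 by Fisher's exact test. No rise could have passed there, so whether the call holds with each read counted once could not be tested. In uninduced cells 6.96% of the 4974 genes with at least 10 observations had a lower coSE than Ldb1, and in induced cells 56.4% of 4042 genes did.

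The coSE of Ldb1 in uninduced cells ranged widely from intron to intron. Introns 3, 4 and 5, all short, had the lowest values in uninduced cells. Intron 3 (chromosome 19, 46036000 to 46036106, 107 nt) was spliced in 3 of 13 reads, a coSE of 0.231 (interval 0.0818 to 0.503). Intron 4 (46035838 to 46035923, 86 nt) was spliced in 3 of 15 reads, a coSE of 0.200 (interval 0.0705 to 0.452). Intron 5 (46035594 to 46035734, 141 nt) was spliced in 3 of 12 reads, a coSE of 0.250 (interval 0.0889 to 0.532). Together these were 9 spliced and 31 unspliced observations. Tested against the other introns of the gene, none of the 3 passed (Fisher's exact test, adjusted p 0.393, 0.194 and 0.525). In each of these tests the other introns included the remaining low ones, which narrows the difference. The introns other than these 3 had 46 of 71 uninduced observations spliced, and the 3 together were not tested against them. A coSE of 0.25 or less was found for 6.03% of the 1244 introns of up to 150 nt with at least 10 uninduced reads, and for 3.01% of all 9982.

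The neighbouring introns 6 and 7 of Ldb1 stood at the other end. Intron 6 (46034947 to 46035420, 474 nt) had 12 of 14 uninduced reads spliced, a coSE of 0.857 (interval 0.601 to 0.960). Intron 7 (46034695 to 46034823, 129 nt) was spliced in 13 of 16, a coSE of 0.813 (interval 0.570 to 0.934). Intron 2 (46036152 to 46036262, 111 nt) lay between, with 7 of 13 reads spliced, as did intron 8 (46034513 to 46034610, 98 nt), with 7 of 15. Of the short introns of this gene, numbers 3, 4 and 5 were thus low, 2 and 8 between and only 7 high. An effect of length was not tested. Introns 1, 9 and 10 had at most 8 uninduced reads. All 10 introns lie between coding exons. Intron 4 is part of 6 of the 7 annotated transcripts that span it, and introns 3 and 5 are part of every one that spans them.

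Splicing of these introns joins the exons as follows, from the GENCODE transcript on GRCm38, with the last 3 bases of the upstream and the first 3 of the downstream exon in capitals. The junctions of the 3 least spliced introns are set beside those of the better spliced introns 6 and 7.
Ldb1 intron 3 junction: ggagcctgggatCGGGAGgcacacaccata
Ldb1 intron 4 junction: cagaactggacaGAGGAGtgtgacaatctc
Ldb1 intron 5 junction: gaccaaagagatATACCAttggccggaccc
Ldb1 intron 6 junction: cccatgtttaccCAGGTGtgtgtggaaggc
Ldb1 intron 7 junction: atcctggccatgCACGCCcaggacccccag
The last 3 exon bases belong to the 5' splice site. They are CGG, GAG and ATA before introns 3, 4 and 5, and CAG and CAC before introns 6 and 7. Before introns 2 and 8, which lay between in coSE, they are GGG and CGA. The introns shown were picked by their coSE, and an effect of these bases was not tested. The exons between introns 3 and 4 and between introns 4 and 5 are 76 and 103 nt long, and the exon between introns 6 and 7 is 123 nt long.

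After induction every Ldb1 read was spliced at 8 of 9 introns with reads, but depth was 1 to 5 reads an intron. At each of introns 3, 4 and 5 all 3 reads were spliced, a coSE of 1 with a Wilson interval of 0.439 to 1. Without a coverage minimum, a setting chosen after the data were seen, Fisher's exact test gave unadjusted p-values of 0.0357, 0.0245 and 0.0440 at these introns and an adjusted p of 1 at each. Intron 8 was spliced in 2 of 4 induced reads, close to its uninduced 7 of 15.

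Lmo2 and Tal1, whose products join LDB1 in the complex, had few reads. Lmo2 had 3 of 5 uninduced observations and 1 of 1 induced observation spliced, at 2 of the 3 introns of its transcript. Both unspliced reads were uninduced reads at intron 3 (chromosome 2, 103976221 to 103980874, between coding exons), where 2 of 4 were spliced. Tal1 had no read before induction and 2 after it, 1 spliced at intron 4 (chromosome 4, 115064764 to 115068276) and 1 unspliced at intron 2 (115059667 to 115063129, in the 5' UTR). At these depths a change of coSE was not detectable in either gene.

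Gata1, the master regulator of the group, was read across all 5 introns in both pools and its coSE ranged widely from intron to intron. In uninduced cells coSE was 0.957 at intron 1 (22 of 23 reads), 0.636 at intron 2 (14 of 22), 0.800 at intron 3 (16 of 20), 1 at intron 4 (13 of 13) and 0.462 at intron 5 (6 of 13). In induced cells it was 1 (33 of 33), 0.75 (27 of 36), 1 (23 of 23), 0.952 (20 of 21) and 0.733 (11 of 15), in the same order. Introns 2 and 5 were the least spliced in both pools, and introns 1 and 4 were above 0.95 in both. The coding sequence of this transcript begins in the exon between introns 1 and 2.

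Each intron was then tested against the other introns of its gene within a pool, by Fisher's exact test adjusted over 16079 introns of both pools. An intron and the rest of its gene are read on the same molecules, and the rest counts a molecule at each intron it covers. The sides are therefore not independent, and the p-values of this comparison, also with both pools added, do not have their nominal size. Of 21 member values tested, 1 passed: Gata1 intron 2 in induced cells, with a coSE of 0.75 against 0.946 in the rest of the gene (adjusted p 0.0463). In this comparison 6.91% of all introns tested were called, 5.14% as lower and 1.77% as higher than the rest of their gene. The call was lost with a minimum of 5 reads (adjusted p 0.0753), where more introns are tested, and among introns found in every spanning transcript (adjusted p 0.334). The latter setting also took Gata1 intron 1, part of 1 of the 2 transcripts that span it, out of the rest of the gene. Gata1 intron 5 in uninduced cells, at 0.462 against 0.833, had an adjusted p of 0.0824. Ldb1 introns 6 and 7, at 0.857 against 0.443 and 0.813 against 0.442 in uninduced cells, had adjusted p-values of 0.0572 and 0.0849. Under a chi-square test in place of Fisher's, Gata1 intron 5 (adjusted p 0.0339) and Ldb1 intron 6 (adjusted p 0.0438), both in uninduced cells, passed as well, and the calls over all introns went from 1111 to 1461 of 16079.

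With the reads of both pools added, 4 of 15 member introns passed Fisher's exact test, where 8.49% of 17789 introns did (2.48% as higher and 6.01% as lower). Gata1 intron 1 (chromosome X, 7963242 to 7967766, 4525 nt, in the 5' UTR) was spliced in 55 of 56 reads, higher than the 0.798 of the rest (adjusted p 0.00821). Gata1 intron 2 (7962549 to 7963002, 454 nt, between coding exons) was spliced in 41 of 58 reads, a coSE of 0.707 (interval 0.580 to 0.808) against 0.894 (adjusted p 0.0209). Gata1 intron 5 (7960129 to 7960582, 454 nt, between coding exons) was spliced in 17 of 28 reads, a coSE of 0.607 (interval 0.424 to 0.764) against 0.880 (adjusted p 0.0148). The 2 lower introns of Gata1 are thus of equal length, and 1 is the second and the other the last of the transcript. Each called intron of Gata1 was part of the rest that the others were compared with. Ldb1 intron 6 was spliced in 17 of 19 reads, higher than the 0.533 of the rest (adjusted p 0.0334).

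Between intron 1 and intron 5 of Gata1, intron 3 (7962070 to 7962170, 101 nt) and intron 4 (7960709 to 7961923, 1215 nt) had no call. Intron 3 has the lowest 5' site score of the 6 scored introns, shown above, and was spliced in 39 of 43 reads of both pools. Intron 2 has the lowest 3' site score. Intron 5 was not in the table of scores, and its exons are joined as follows, with the same capitals as above.
Gata1 intron 5 junction: ttcaagctccatCAGGTGaaccgcccactg

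**Figure D2:**
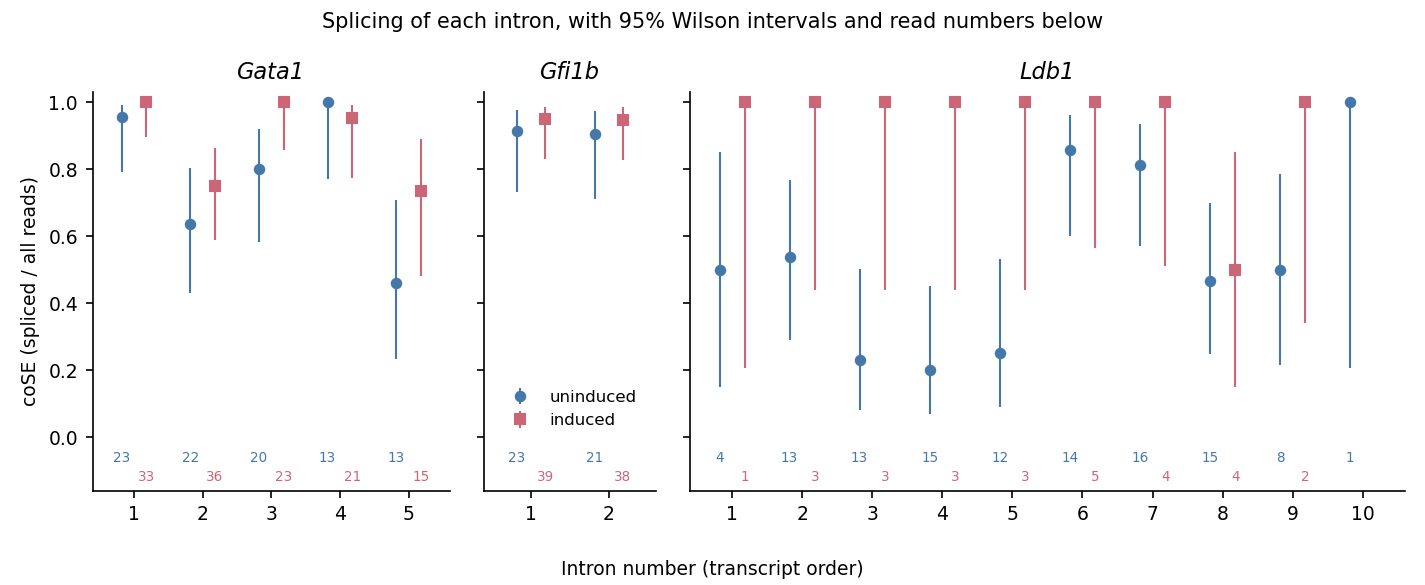
coSE (y axis, spliced over all reads) of each intron of Gata1, Gfi1b and Ldb1 in transcript order (x axis), uninduced in blue circles and induced in red squares, with 95% Wilson intervals and the number of reads below. Gata1 introns 2 and 5 lie lowest in that gene in both pools, and Ldb1 introns 3 to 5 lie at or below 0.25 before induction.

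Gata1 as a whole had 71 of 91 uninduced observations spliced, a coSE of 0.780 (interval 0.685 to 0.853), and 114 of 128 induced observations, a coSE of 0.891 (interval 0.825 to 0.934). The difference of 0.11 did not pass (Fisher's exact test, unadjusted p 0.0364, adjusted p 0.193). Of the 7 member introns with at least 10 reads in both pools, all in Gata1 and Gfi1b, none changed past the threshold, and 1 had an unadjusted p under 0.05. In that comparison 1.61% of 4403 introns were called, 0.363% as higher and 1.25% as lower after induction. The 1 intron was Gata1 intron 3, unspliced in 4 of 20 uninduced and 0 of 23 induced reads (Fisher's exact test, unadjusted p 0.0393, adjusted p 0.553). In a single random thinning of the uninduced reads to the depth of the induced pool, its difference went from 0.2 to 0.0714 (Fisher's exact test, unadjusted p 0.378). A count of 0 in 23 reads allows an unspliced share of up to 13.0%. coSE was higher after induction at 6 of the 7 introns and lower at Gata1 intron 4.

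Zfpm1, the cofactor of GATA1, had 5 of 7 uninduced and 13 of 18 induced observations spliced, over 6 tabulated introns of a transcript with 9. All 5 unspliced induced reads lay at intron 7 (chromosome 8, 122334683 to 122334931, 249 nt, between coding exons), which was spliced in 2 of 7 induced reads (coSE 0.286, interval 0.0822 to 0.641) and 1 of 1 uninduced read. Introns 4, 5, 6 and 8 had 11 of 11 induced reads spliced. Both unspliced uninduced reads lay at intron 8 (122335028 to 122335112, 85 nt, between coding exons), which was spliced in 1 of 3 uninduced and 3 of 3 induced reads. Intron 3, of 16058 nt, was listed with 0 reads.

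Klf1, the activator of globin genes, had 7 of 9 uninduced and 11 of 11 induced observations spliced. Its intron 1 (chromosome 8, 84902116 to 84902688, 573 nt) was spliced in 5 of 5 and 9 of 9 reads, and its intron 2 (84903503 to 84904763, 1261 nt) in 2 of 4 and 2 of 2. Both lie between coding exons. All unspliced Klf1 reads were thus at intron 2 in the uninduced pool. Nfe2 had a single tabulated intron (chromosome 15, 103249449 to 103250928, 1480 nt, between coding exons), spliced in 1 of 1 uninduced and 4 of 5 induced reads.

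Gfi1b was well and evenly spliced in both pools. Its tabulated transcript is a noncoding one with 2 introns. The same introns are the first, in the 5' UTR, and the second, between coding exons, of a coding transcript with 6 introns. Intron 1 (chromosome 2, 28615398 to 28621848, 6451 nt) was spliced in 21 of 23 uninduced and 37 of 39 induced reads, a coSE of 0.913 and 0.949. Intron 2 (28614893 to 28615276, 384 nt) was spliced in 19 of 21 and 36 of 38 reads, a coSE of 0.905 and 0.947. The introns, which differ in length, thus had nearly the same values, and each had 2 unspliced reads in each pool. Over the gene, coSE was 0.909 (interval 0.788 to 0.964) and 0.948 (interval 0.874 to 0.980), a difference of 0.04 that did not pass (Fisher's exact test, unadjusted p 0.460, adjusted p 0.850).

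**Figure D3:**
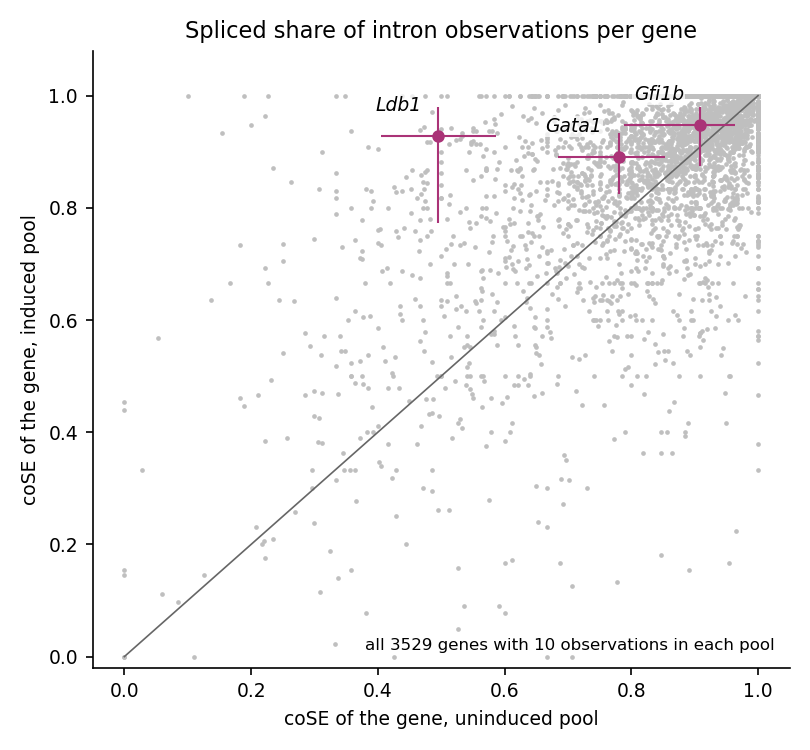
coSE per gene, summed over introns, before (x axis) and after (y axis) induction for 3529 genes with at least 10 observations in each (grey), with Gata1, Gfi1b and Ldb1 in purple and 95% Wilson intervals, which treat observations as independent. The line marks equal values. Ldb1 lies far above it, at 0.495 and 0.929, and Gata1 and Gfi1b lie closer to it.

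Splicing intermediates, RNAs between the first and the second step of splicing, whose 5' exon is free, are the other readout. How the authors recognised them is not given in the sources used here. The normalized intermediate count (NIC), as the deposited fraction is called here, is intermediates over intermediates plus spliced reads, and its table listed 4 introns of Gata1 and 2 of Gfi1b. Gata1 had 2 intermediates beside 40 spliced reads before induction and 7 beside 79 after it, giving NIC values of 0.0476 and 0.0814. Gfi1b had 1 beside 28 and 1 beside 71, or 0.0345 and 0.0139. Neither gene changed past the threshold (Fisher's exact test, unadjusted p 0.717 for Gata1 and 0.494 for Gfi1b, adjusted p 1 for both), where 1.53% of 458 genes were called. Intron 3 of Gata1 held 5 of the 7 induced intermediates, beside 12 spliced reads, a NIC of 0.294 (interval 0.133 to 0.531). In the uninduced pool it had 0 beside 12, which allows a share of up to 25%. By Fisher's exact test per intron, added after the data were seen, its unadjusted p was 0.0588 and its adjusted p 1, where 0.12% of 1672 introns were called. A NIC at least this high was found at 2.89% of the 3008 induced introns. The same intron had 23 spliced induced reads in the coSE table and 12 in the NIC table, and the rule behind the smaller count is not given in the sources used here.

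The share of nascent reads was higher after induction for Gata1 and Gfi1b and lower for Ldb1. Gata1 had 219 uninduced and 458 induced observations per 1000000 of the pool, a ratio of 2.10. Gfi1b had 106 and 276, a ratio of 2.61. Ldb1 had 267 and 100.2, a ratio of 0.376. At the deepest intron of each gene, where a read counts once, the ratio was 2.44 for Gata1 (exact 95% interval 1.40 to 4.35; 22 and 36 reads), 2.53 for Gfi1b (1.47 to 4.43; 23 and 39 reads) and 0.373 for Ldb1 (0.0906 to 1.16; 16 and 4 reads). The interval for Ldb1 includes 1. Shares at least 2-fold higher were found for 19.1% of 3529 genes, here Gata1 and Gfi1b, and at least 2-fold lower for 16.1%, here Ldb1. No test of these shares was run. Each condition is 1 pool, so the intervals cover counting error and not the spread between replicates. Fewer transcribing cells and less transcription per cell cannot be told apart. Klf1 had 21.6 and 39.4 observations per 1000000, a ratio of 1.82 from 9 and 11 observations, and Zfpm1 16.8 and 64.4, a ratio of 3.83 from 7 and 18.

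**Figure D4:**
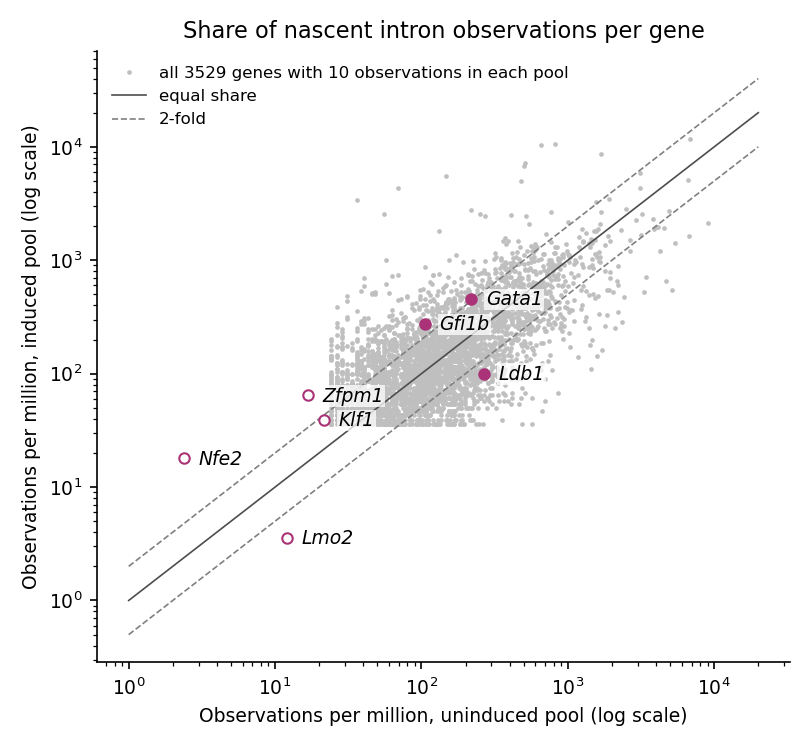
Intron observations per 1000000 of the pool, uninduced (x axis) and induced (y axis), both on log scales, for 3529 genes (grey) and for 7 of the 8 genes (purple; Tal1 had 0 uninduced reads). Filled points have at least 10 observations in each pool; the solid line marks equal shares and the dashed lines a 2-fold difference. Gata1 and Gfi1b lie above the upper dashed line and Ldb1 below the lower one.

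The list of 44 other erythroid factors and partners, compared with the 8 genes, had 36 genes in the table, of which 13 had at least 10 observations in both pools. None of the 13 changed in coSE past the threshold (Fisher's exact test; 1 had an unadjusted p under 0.05), beside 1 of 3 for the 8 genes and 384 of 3529 for all genes. Their median difference was 0.04, against 0.02 over all genes tested. In the test against the rest of the gene, 2 of their 27 values passed, a share near the 6.91% of all introns tested. Intron 8 of Ssbp2, which encodes a protein that binds LDB1, was spliced in 7 of 12 induced reads against 106 of 106 in the rest (Fisher's exact test, adjusted p 0.000205). Intron 5 of Myb, a factor of immature blood cells, was spliced in 17 of 17 uninduced reads against a coSE of 0.662 in the rest (Fisher's exact test, adjusted p 0.0485). With both pools added, 1 of 35 introns tested in these genes was called higher and 2 lower, beside 2.48% and 6.01% of all introns. In nascent reads, 5 of the 13 genes had a higher and 8 a lower share after induction, with a median ratio of 0.650 against 1.06 over all genes tested. Shares at least 2-fold higher were found for 2 of the 13 and at least 2-fold lower for 1, beside 19.1% and 16.1% of all genes. The minimum in both pools leaves out genes with fewer than 10 observations in a pool, and these went both ways. Among them, chosen after their values were seen, Myb had 150 uninduced and 4 induced observations, Runx1 29 and 9, Hdac2 24 and 0 and Cbfb 10 and 0. In the other direction, E2f4 had 4 and 13, Ssbp3 7 and 15 and Nfe2l1 9 and 14. Lyl1, a relative of TAL1, stood at a ratio of 4.47 and Stat5b, which signals downstream of the erythropoietin receptor, at 2.02, while Kdm1a, a histone demethylase recruited by GFI1B, stood at 0.268.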

How the data were processed

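The deposited tables give, per intron and condition, a raw count of spliced and of unspliced reads, and, for fewer introns, counts of spliced reads and of intermediates, the fraction NIC, the GC percent, the intron length, a score for each of the 5' and 3' splice sites and their sequences, per the file headers. The submitters' processing notes name cutadapt, minimap2, SAMtools, bedtools and Bowtie and the builds mm10 and dm3, with no roles. How reads were counted, and which runs were pooled, is not given in the sources used here. The lines of each condition were assigned to the 4 untreated and the 4 DMSO-treated long-read samples. The other 12 samples were not analysed here.

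Introns were matched to GENCODE mouse release 21 (GRCm38) by transcript, adding 2 to the deposited start and taking 1 from the end; 99.96% fell on introns of that transcript's annotation, and all 31 member introns did. Introns with no line in a pool were taken as 0 reads. Fisher's exact tests (SciPy 1.17.1) were two-sided, needed at least 10 reads on each side, and were adjusted by Benjamini-Hochberg over all introns or genes tested, with a threshold of 0.05. Intervals are 95% Wilson intervals, or exact ones for ratios. The share that a count of 0 allows is given as 3 counts divided by the total, an approximate upper limit and not a Wilson bound. Both cover counting error only, since PCR copies may be counted. Intervals of values summed over introns treat the observations as independent. The tests were tried on simulated counts with known changes, drawn independently for each gene or intron. These counts held no shared reads, so the trial did not cover the effect of counting a read at several introns. Members, gene lists and tests were chosen with earlier results of these data known. All members were described, with each of their introns past a threshold and the genes of the comparison list past one in the main settings.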

Additional observations from a re-analysis of the deposited data

How the results depend on the processing

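No paired analysis was possible because replicates were merged before deposit into 1 value per pool; leaving out a replicate was not possible for the same reason, and neither was run. For the change of coSE per gene, the 1 member past the threshold, Ldb1, had too few reads for a test in the settings that count a read about once: 0 of 2 members passed with the deepest intron at 10 reads and 0 of 2 with mean reads per intron (Ldb1 fell under the minimum in both), and 0 of 7 with the deepest intron and no minimum, where no rise of Ldb1 could have passed. These values say nothing on whether its call is stable. It passed in the other 4 settings (20 reads, chi-square, introns in every spanning transcript, introns with a line in both pools). All 4 still count a read at each intron it covers, and the 20-read and chi-square settings use the same Ldb1 counts. These passes therefore do not settle that either. Over all genes, 384 calls of 3529 genes tested became 19 of 1009 with the deepest intron, 9 of 491 with mean reads, 13 of 5757 with the deepest intron and no minimum (a setting chosen after seeing the data, which changes both choices), 231 of 2712 for introns in every spanning transcript, 350 of 2401 at 20 reads, 453 of 3529 by chi-square and 352 of 3398 for introns with a line in both pools; the cause was not tested. For an intron against the rest of its gene, 1 member value passed, and 0 with a minimum of 5 reads, 3 by the chi-square test, 0 for introns in every spanning transcript and 4 with both pools added; over all introns, 1111 calls of 16079 became 412 of 10417 for introns in every spanning transcript, 682 of 5463 at 20 reads, 1309 of 37535 at 5 reads, 1461 of 16079 by chi-square and 1510 of 17789 with both pools added. For the change of coSE per intron, 0 member introns passed under each of 6 alternatives, while calls over all introns went from 71 of 4403 to 31 of 2806 for introns in every spanning transcript, 36 of 42074 with no minimum, 50 of 11556 at 5 reads, 68 of 1330 at 20 reads, 99 of 4403 by chi-square and 62 of 3329 with uninduced reads thinned. With that thinning, a single random draw, the difference was 0 at Gata1 intron 1, 0.0577 at Gata1 intron 2, 0.0321 at Gfi1b intron 1 and 0.0807 at Gfi1b intron 2, and Gata1 introns 4 and 5 fell under the minimum. For NIC, 0 of 2 members passed under each of 3 alternatives, beside 5 of 534 genes with unspliced reads added, 7 of 446 for introns listed in both pools and 7 of 458 by chi-square. The nascent read ratios of Gata1 and Gfi1b stayed at 2 or more with the deepest intron, where Ldb1 was under the minimum, and without globin genes and Alas2, where all 3 genes kept their direction; over all genes, 259 of 1009 and 1240 of 3524 were past 2-fold in these settings. Depth limits the results, since 5 of 8 genes had fewer than 10 observations in a pool.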

Other observations

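Among the other factors, chosen for their counts after these were seen, Myb had 150 uninduced and 4 induced observations, Hdac2 24 and 0, and Spi1, whose product opposes GATA1, 9 and 0. In the other direction, Cbfa2t3 and E2f2 each had 0 uninduced and 8 induced observations. Lyl1 was almost unspliced, with 0 of 16 uninduced and 7 of 48 induced observations spliced. Nfe2l1, a relative of Nfe2, had 1 of 9 uninduced and 14 of 14 induced observations spliced and was under the minimum in the uninduced pool. Hdac1, a histone deacetylase, went the other way, with 11 of 16 uninduced and 2 of 12 induced observations spliced (Fisher's exact test, unadjusted p 0.00932, adjusted p 0.0723). These sums count a read at each intron it covers, and no cause was tested.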
